A study of Homo sapiens with 24 samples.

Results

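The mitochondrial genome carries its own small set of messenger RNAs, and 10 of them were followed across the 24 libraries of a circular RNA knockdown study. They were chosen by gene name alone, from 60658 gene rows, of which 37 lie on the mitochondrial chromosome. They encode the complex I subunits MT-ND1, MT-ND2, MT-ND4, MT-ND5 and MT-ND6, the complex III subunit MT-CYB, the complex IV subunits MT-CO1, MT-CO2 and MT-CO3, and the complex V subunit MT-ATP6. All 10 were found in the deposited tables and passed the filter of at least 10 counts in at least 3 libraries in every comparison.

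The cells are labelled SH-SY5Y, a neuroblastoma line. In 4 setups the circular RNA ciRS-7, also called CDR1as, was targeted (knockdown, KD), and each setup had its own non-targeting control (NTC). With 3 libraries in each of 8 groups there were 24 libraries. In the agoshRNA groups the cells received a vector for a short hairpin RNA that Argonaute processes. In the gRNA and pre-gRNA groups they received a plasmid for the RNA-cutting nuclease CasRx joined to GFP, with a second plasmid for a mature or a precursor guide. In the syn-gRNA groups the guide was chemically synthesised, and its delivery is not described in the labels. RNA was taken 48 h after transfection. The labels do not say whether the 3 libraries of a group came from separate cultures, so p-values measure only the spread between these libraries, which may be technical. A library is called by its group and the letter A, B or C that its table column carries.

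Poly(A) RNA was read without strand information in paired reads of 100 nt, and library totals were 10994974 to 16233777 counts. Poly(A) selection is meant to leave out circular RNA, and the CDR1-AS row held 0 to 16 counts per library, so the target gave no check of the labels. The label SH-SY5Y was compared with marker lists. Of 13 noradrenergic markers 6 were under 1 CPM (counts scaled to a common library total), namely PHOX2A, DBH, TH, STMN2, ELAVL3 and ELAVL4, and 3 exceeded 10 CPM, namely NEFL at 94.8, NEFM at 38.4 and GATA2 at 35.7 CPM. Of 10 kidney-lineage markers 7 exceeded 10 CPM, with HOXA9 at 98.2 CPM, and PAX8 was under 1 CPM. Of 8 markers of mesenchymal neuroblastoma 6 exceeded 10 CPM, with VIM at 872 CPM, and FOSL1 was under 1 CPM. Which cell type or state these levels reflect was not tested. The enzymes of noradrenaline synthesis DBH and TH were thus near 0 in cells labelled as neuroblastoma. The agoshRNA libraries of letter B and all syn-gRNA libraries stood apart in the mitochondrial RNAs, and some values below are given with them and without them.

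As background, both strands of the circular mitochondrial genome are transcribed into long precursors by the polymerase POLRMT with the factor TFAM. Transfer RNAs that lie between the coding regions are cut out, which frees the ribosomal and messenger RNAs. Many of the messengers carry almost no untranslated sequence, and MTPAP adds a short poly(A) tail to most of the set. For several messengers the tail itself supplies the missing letters of a UAA stop codon. MT-ND6 is the exception among the messengers, because it is read from the other strand and is known to carry little or no poly(A) tail. Levels of the finished messengers depend strongly on their individual stability, in which the protein LRPPRC takes part.

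The ends of the annotated messengers are shown because poly(A) selection acts on the tail that is added there. The sequences are the last 24 bases of each GENCODE 29 transcript (GRCh38), 5′ to 3′, matched by transcript identifier for 10 of 10, and the deposited hg19 coordinates of all 10 equal those of GENCODE 29. Capitals mark the bases left over after the last full codon, or the full final codon where none are left over. The 5 messengers whose length is not a multiple of 3 come first.
MT-ND1: ctccagcattccccctcaaaccTA
MT-ND2: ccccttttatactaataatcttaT
MT-ND4: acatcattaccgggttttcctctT
MT-CYB: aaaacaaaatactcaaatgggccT
MT-CO3: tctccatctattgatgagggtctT
MT-ND5: ctaaccctactcctaatcacaTAA
MT-ND6: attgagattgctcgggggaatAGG
MT-CO1: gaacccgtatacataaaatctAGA
MT-CO2: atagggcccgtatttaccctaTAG
MT-ATP6: ctctacctgcacgacaacacaTAA
Of the first 5, MT-ND1 ended in TA and the other 4 in a single T, to which an added A tail gives TAA. Of the other 5, MT-ND5 and MT-ATP6 ended in TAA and MT-CO2 in TAG, while MT-CO1 ended in AGA and MT-ND6 in AGG. All but MT-ND6 lie on the plus strand of chromosome M. In order along it, MT-ND1 spans 3307 to 4262, MT-ND2 4470 to 5511, MT-CO1 5904 to 7445, MT-CO2 7586 to 8269, MT-ATP6 8527 to 9207, MT-CO3 9207 to 9990, MT-ND4 10760 to 12137, MT-ND5 12337 to 14148, MT-ND6 14149 to 14673 on the minus strand, and MT-CYB 14747 to 15887. Each is a gene without introns. Annotated overlaps were 46 bases between MT-ATP8 and MT-ATP6, 7 bases between MT-ND4L and MT-ND4, and 1 base between MT-ATP6 and MT-CO3, and how reads there were assigned is not given in the sources used here.

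The 10 messengers together took 2.24 ± 0.616% of the library counts (SD, n = 24), between 1.18% in agoshRNA NTC B and 3.30% in agoshRNA NTC A. Without the 2 agoshRNA libraries of letter B the mean was 2.33 ± 0.56% (n = 22). Counting error was small beside this spread, since the widest 95% Wilson interval of a library's share was 0.0193 percentage points. Such intervals cover counting error only, because PCR copies are not separate molecules. Fewer mitochondria-rich cells, fewer mitochondria per cell and less RNA per mitochondrion cannot be told apart in bulk RNA. Reads from nuclear copies of mitochondrial DNA were few in the tables: 386 rows with a copy's name in GENCODE 29 held 13565 counts, which is 0.18% of the 7545855 counts of the 10 messengers. Reads of such near-identical copies could have been split by the authors' counting, so the exact division is uncertain.

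Scaled by length, MT-CO1 was the most abundant messenger and MT-CYB the least. MT-CO1, the catalytic core of cytochrome c oxidase, averaged 4333 ± 1050 CPM per kb (SD, n = 24), and the complex I subunit MT-ND4 averaged 3285 ± 728 CPM per kb. MT-CO1 exceeded MT-ND4 in 24 of 24 libraries. Then came the copper-binding subunit MT-CO2 at 2837 ± 1101, MT-ND6 at 2430 ± 778, the proton-channel subunit MT-ATP6 at 1995 ± 866 and MT-ND5 at 1631 ± 561 CPM per kb. The place of MT-ND6 is uncertain, because reads without strand cannot be split between its messenger and RNA antisense to it. MT-CO3 stood at 1492 ± 519, MT-ND1 at 1312 ± 348, MT-ND2 at 685 ± 158 and MT-CYB, the cytochrome b of complex III, at 488 ± 246 CPM per kb. MT-ND1 exceeded MT-ND2 in 24 of 24 libraries and MT-ND2 exceeded MT-CYB in 20 of 24. Other neighbours changed places too. MT-ND4 exceeded MT-CO2 in 16 of 24 libraries, MT-CO2 exceeded MT-ND6 in 17, MT-ND6 exceeded MT-ATP6 in 20, MT-ATP6 exceeded MT-ND5 in 18, MT-ND5 exceeded MT-CO3 in 17 and MT-CO3 exceeded MT-ND1 in 14. Each of the differences from MT-ND4 down to MT-ND1 was smaller than the SD of the higher gene. Per library, raw counts of the 10 were never low: MT-ND2, for instance, had 5675 to 14503 counts.

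The steadiest pair of messengers lay within complex I, and the least steady pairs joined complex I subunits with MT-CYB. MT-ND5, a proton-pumping subunit, and MT-ND6 kept nearly the same ratio in every library: MT-ND6 had 0.438 ± 0.0241 counts per count of MT-ND5 (SD, n = 24), with a range of 0.404 to 0.516. Of the 45 pairs that the 10 messengers form, this one had the smallest spread of the log2 ratio (SD 0.08), ahead of MT-ND2 with MT-ND4 (0.14). The 2 genes abut on opposite strands, and the libraries were read without strand, so reads of an RNA running through MT-ND5 into the region antisense to MT-ND6 cannot be told apart from reads of MT-ND6 messenger. At the other end, MT-ND1 with MT-CYB had the widest log2 ratio (SD 0.79) and MT-ND5 with MT-CYB the second widest (SD 0.62). The ratio of MT-CYB to MT-ND5 was lowest in syn-gRNA NTC A and highest in agoshRNA KD B. Spreads of pairs were computed over all 24 libraries only, so they include the libraries that stood apart.

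MT-ND6 stood at 1925, 433 and 1323 CPM in agoshRNA KD A, B and C, and at 2051, 411 and 1473 CPM in the same letters of agoshRNA NTC. In gRNA it read 1766, 1306 and 1394 CPM in KD and 1565, 1379 and 1467 CPM in NTC. Its lowest values by far were thus the 2 agoshRNA libraries of letter B. In pre-gRNA its level was 1605, 1338 and 1320 CPM in KD and 1499, 1012 and 1458 CPM in NTC, and in syn-gRNA 1064, 943 and 757 CPM in KD and 1264, 988 and 875 CPM in NTC. MT-ND5 ran from 798 CPM in agoshRNA NTC B to 4838 CPM in agoshRNA NTC A, a range of 6.06-fold, the widest of the 10, but of 2.84-fold without the 2 agoshRNA libraries of letter B, where MT-CYB had 4.58-fold and MT-ATP6 4.26-fold. MT-CO1 had the narrowest range over the 24 libraries, 2.11-fold, and MT-ND4 the narrowest without those 2 libraries, 1.74-fold.

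**Figure D1:**
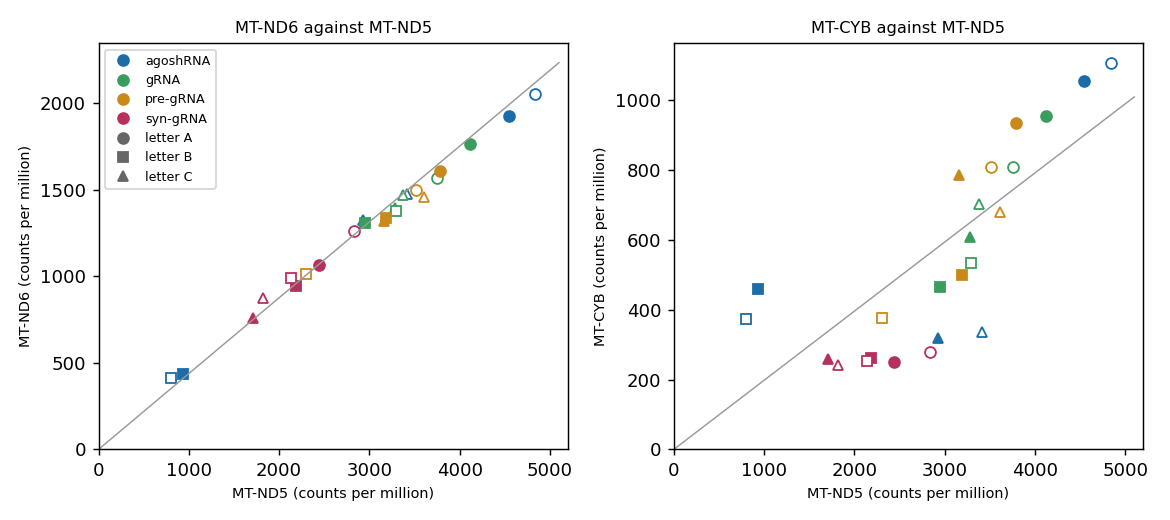
MT-ND6 (left) and MT-CYB (right) against MT-ND5 in CPM, 1 point per library, with colour for the setup, shape for the letter, filled points for KD and open points for NTC. The grey line has the slope of the mean ratio, which MT-ND6 follows within 0.404 to 0.516. The ratio of MT-CYB to MT-ND5 runs from 0.0985 in syn-gRNA NTC A to 0.493 in agoshRNA KD B.

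The make-up of the 10 messengers varied between libraries, and KD and NTC of a letter were close in some cases but not in all. In syn-gRNA, MT-CO1 made up 31.6 to 32.3% in KD and 28.9 to 30.4% in NTC. MT-ND6 made up 5.34 to 5.83% in syn-gRNA KD and 5.91 to 6.51% in NTC. These differences in make-up were not tested. In the agoshRNA libraries of letter B, MT-ND5 was 7.01% (KD) and 6.74% (NTC) of the 10 messengers' counts, against 11.1 to 14.9% in the other 22 libraries. MT-CO1 made up 36.2% and 37.9% there, against 27.0 to 32.3% elsewhere. MT-RNR2, the 16S ribosomal RNA, was also highest in these 2 libraries, at 21473 and 24801 CPM, against a highest value of 18526 CPM in the rest.

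Outside syn-gRNA, the share of MT-CYB differed between letters, but only letter A was alike in agoshRNA, gRNA and pre-gRNA. It made up 3.16 to 3.43% of the 10 messengers in the 6 letter A libraries of agoshRNA, gRNA and pre-gRNA. Its share was 2.24 to 2.35% in the 4 letter B libraries of gRNA and pre-gRNA and 2.32 to 2.77% in their 4 letter C libraries. In agoshRNA it was 3.46% and 3.16% in letter B but 1.33% and 1.29% in letter C. MT-ND1 went the other way in agoshRNA letter C, at 7.96% and 7.20%, against 4.50 to 4.92% in the other 4 agoshRNA libraries. KD and NTC of the same letter were alike in each of these cases, and what the letters stand for is not given in the sources used here.

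The syn-gRNA libraries stood apart in the share of MT-CO2, in both arms, and had a low MT-CYB and a high MT-ND1 in common with agoshRNA letter C. MT-CO2 was 6.06 to 6.54% of the 10 messengers in the 6 syn-gRNA libraries and 7.54 to 11% in the other 18. MT-CYB was 1.37 to 1.83%, above the 1.33% and 1.29% of agoshRNA letter C and below the 2.24 to 3.46% of the other 16 libraries. MT-ND1 stood at 6.13 to 8.98% in syn-gRNA, against 4.28 to 6.10% in gRNA and pre-gRNA. The agoshRNA libraries of letter C, at 7.96% and 7.20%, lay within the syn-gRNA range, and those of letters A and B lay at 4.50 to 4.92%.

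The first question of the study is whether a knockdown changes messenger RNAs beyond its target. For the mitochondrial messengers no setup gave a call. Of the 10, 0 changed between KD and NTC in the agoshRNA, gRNA, pre-gRNA or syn-gRNA setup (DESeq2 Wald test, adjusted p = 1 for each), 0 had an unadjusted p under 0.05, and edgeR's quasi-likelihood test also called 0. The background was 0% of the 17802, 18371, 18717 and 18513 genes tested, so the count sets these messengers apart from no other group. In every messenger and setup the 3 KD values overlapped the 3 NTC values, where 0.871%, 2.3%, 1.13% and 4.88% of all genes did not overlap in agoshRNA, gRNA, pre-gRNA and syn-gRNA. The median log2 fold change of the 10 was -0.01 in agoshRNA, 0.07 in gRNA, 0.18 in pre-gRNA and -0.07 in syn-gRNA.

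Precision differed between setups. The median SE of the 10 log2 fold changes was 0.54 in agoshRNA, 0.33 in gRNA, 0.34 in pre-gRNA and 0.16 in syn-gRNA, in fits without the letter. With the letter as a block 0 of 10 were called in each setup, and 0, 0, 5 and 3 had an unadjusted p under 0.05 in agoshRNA, gRNA, pre-gRNA and syn-gRNA (DESeq2). The share of all genes under 0.05 in those block fits is not given here, so these counts do not single out the messengers. Without the block, MT-ND6 gave -0.06 (SE 0.68), 0.13 (SE 0.32), 0.09 (SE 0.32) and -0.18 (SE 0.16) in that order of setups. The largest difference of any messenger was MT-ND1 in syn-gRNA, at -0.28 (SE 0.18, unadjusted p = 0.112 and adjusted p = 1 in DESeq2): it read 1124, 1227 and 869 CPM in KD A, B and C and 1309, 1502 and 1072 CPM in NTC. The KD values were lower in all 3 letters but overlapped the NTC range. The KD effect did not differ by call between any 2 setups: in 6 pairs, 0 of 10 messengers were called by DESeq2 and 0 had an unadjusted p under 0.05, edgeR called 0, and the background was 0% of 20172 genes. The authors' deposited table of each comparison lists medians of 0.0135, 0.0599, 0.183 and -0.0536 for the 10 log2 fold changes in agoshRNA, gRNA, pre-gRNA and syn-gRNA, with an adjusted p of 1 throughout.

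No difference in the summed share between the arms passed its test. In agoshRNA the 10 messengers took 3.14, 1.33 and 2.40% of the counts in KD A, B and C and 3.30, 1.18 and 2.61% in NTC. In gRNA they took 2.90, 2.08 and 2.63% in KD and 2.56, 2.30 and 2.92% in NTC. The spread among the 3 libraries of an arm was wider than the gap between arms in both setups. Pre-gRNA shares were 2.72, 2.13 and 2.84% in KD and 2.41, 1.65 and 2.77% in NTC. Syn-gRNA shares were 1.83, 1.66 and 1.42% in KD and 1.94, 1.67 and 1.45% in NTC. KD minus NTC was -0.0755 percentage points in agoshRNA (ratio of means 0.968), -0.0548 in gRNA (0.979), 0.291 in pre-gRNA (1.13) and -0.0519 in syn-gRNA (0.969), with exact two-sided permutation p of 0.8, 0.9, 0.6 and 0.7. With 3 against 3 libraries that test cannot go below 0.1, and over the 10 comparisons of shares the adjusted p was 0.9 for each. Compared letter by letter, pre-gRNA KD was above its NTC in 3 of 3 letters (0.316, 0.488 and 0.0699 percentage points) and syn-gRNA KD below its NTC in 3 of 3 (-0.116, -0.0117 and -0.0276).

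Between the setups the differences were larger and uneven across the 10 messengers. The controls were compared first, as they received no targeting guide. The share of the 10 in gRNA NTC (2.59 ± 0.315%, SD, n = 3) was 1.54 times that in syn-gRNA NTC (1.69 ± 0.248%), a difference of 0.906 percentage points without overlap (exact permutation p = 0.1, the smallest possible, adjusted p = 0.9). The agoshRNA and pre-gRNA controls overlapped syn-gRNA NTC, with ratios of 1.40 (p = 0.4) and 1.35 (p = 0.3) in the same exact test. The setup and anything else that went with it, such as reagent or processing, cannot be told apart, and the 3 comparisons share the syn-gRNA controls.

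MT-CYB, MT-CO2 and MT-ATP6 stood farthest above syn-gRNA. MT-CYB read 279, 252 and 242 CPM in syn-gRNA NTC A, B and C and 249.6, 262 and 259.6 CPM in KD. In gRNA it read 809.5, 534 and 703 CPM in NTC and 954.5, 466 and 610.0 CPM in KD. All 6 syn-gRNA libraries lay below all 6 gRNA libraries. In pre-gRNA MT-CYB stood at 810.5, 378 and 679 CPM in NTC and 935, 501 and 788 CPM in KD, and in agoshRNA at 1108, 374 and 338 CPM in NTC and 1056, 459 and 320.4 CPM in KD. The highest syn-gRNA value, 279 CPM, was thus below the lowest of the other 18 libraries, 320.4 CPM. In the controls the log2 difference of MT-CYB from syn-gRNA was 1.17 in agoshRNA, 1.26 in gRNA and 1.20 in pre-gRNA (SE 0.40 each), and it missed the threshold in DESeq2 with adjusted p of 0.106, 0.0788 and 0.0646.

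MT-CO2 read 1218, 1014 and 933 CPM in syn-gRNA NTC and 1184.5, 1014 and 928 CPM in KD. In gRNA its level was 2460 CPM (A), 1826 CPM (B) and 2423 CPM (C) in NTC and 3023, 1572 and 2227 CPM in KD. Again the syn-gRNA libraries lay below all of these. In pre-gRNA NTC it was 2367, 1334 and 2441 CPM, and in agoshRNA NTC 3246, 1216 and 2190 CPM, where only letter B of agoshRNA fell within the syn-gRNA range. Its log2 differences from syn-gRNA NTC were 1.02 in agoshRNA, 0.94 in gRNA and 0.90 in pre-gRNA (SE 0.31 each), with adjusted p of 0.0503, 0.098 and 0.0802 in DESeq2.

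Of the 10 messengers, DESeq2 called 0 in each of the 3 comparisons of controls with syn-gRNA NTC, against a background of 1.84% of 20172 genes for agoshRNA, 1.32% for gRNA and 3.25% for pre-gRNA. Unadjusted p was under 0.05 for 3, 4 and 3 of the 10, and for 2502, 2372 and 3591 of the 20172 genes (DESeq2). edgeR called 0 of the 10 in each, with the same counts of the 10 under 0.05. The groups did not overlap for 1, 9 and 2 of the 10, where 18.9%, 29.8% and 29% of all genes did not overlap. The median log2 difference of the 10 was 0.42, 0.47 and 0.41. In pair-by-pair fits of 6 libraries alone, 4 messengers were called for gRNA (MT-CYB, MT-CO2, MT-CO3 and MT-ATP6) and 2 for pre-gRNA (MT-CYB and MT-CO2). Those 2 fits called 1018 and 1319 of all genes. Without agoshRNA NTC B, MT-CO2 was called for agoshRNA (log2 1.28, adjusted p = 0.00967 in DESeq2).

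The other messengers ranged widely around that median. MT-ATP6 differed from syn-gRNA NTC by 0.79, 0.94 and 0.76 on the log2 scale in agoshRNA, gRNA and pre-gRNA, and MT-CO3, a structural subunit of complex IV, by 0.77, 0.81 and 0.64. MT-CO1 stood at 0.49, 0.47 and 0.39, MT-ND5 at 0.35, 0.48 and 0.43, and MT-ND6 at 0.27, 0.36 and 0.30. MT-ND4 lay at 0.20, 0.33 and 0.19, MT-ND2 at 0.24, 0.14 and 0.00, and MT-ND1 at 0.01, -0.12 and -0.23. The smallest of these differences belonged to complex I subunits, and none of these 8 messengers was called in the joint fit of 24 libraries; only MT-CO3 and MT-ATP6 were called for gRNA in the fit of the pair alone.

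In the knockdown arms, which share the column letters with the controls and are no independent repeat, 5 single results passed the threshold. MT-CO2 was higher than in syn-gRNA KD by 1.15 on the log2 scale in agoshRNA KD (SE 0.31, adjusted p = 0.0145), by 1.09 in gRNA KD (adjusted p = 0.0336) and by 1.07 in pre-gRNA KD (adjusted p = 0.0292; DESeq2 throughout). MT-CYB was higher by 1.37 in gRNA KD (SE 0.40, adjusted p = 0.0428) and by 1.43 in pre-gRNA KD (adjusted p = 0.0212), and stood at 1.21 in agoshRNA KD (adjusted p = 0.0653). That is 1, 2 and 2 of 10 messengers, where 3.14%, 1.58% and 2.52% of 20172 genes were called, and the 3 comparisons share the syn-gRNA KD libraries. edgeR called 0 of the 10 in each, and no call held when each library was left out in turn: MT-CO2 against agoshRNA KD stayed called in 2 of 6 such fits and each of the other 4 results in 1 of 6. All 5 kept their direction: over these fits MT-CYB stood at 0.95 to 1.58 in gRNA and 1.31 to 1.55 in pre-gRNA, and MT-CO2 at 0.92 to 1.37 in agoshRNA, 0.75 to 1.30 in gRNA and 0.99 to 1.16 in pre-gRNA. The lowest values in gRNA were those without gRNA KD A (adjusted p = 0.599 for MT-CO2 and 0.663 for MT-CYB in DESeq2). Without agoshRNA KD B, in contrast, MT-CYB, MT-CO3 and MT-ATP6 were also called in agoshRNA, with log2 differences of 1.34, 1.04 and 1.28. The groups did not overlap for 2, 9 and 8 of the 10, against 15.6%, 25.9% and 25.9% of all genes, and the medians of the 10 were 0.40, 0.66 and 0.59.

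Among agoshRNA, gRNA and pre-gRNA the messengers were not called apart. In the 3 pairs of controls and the 3 pairs of knockdown arms, 0 of 10 passed in DESeq2, 0 had an unadjusted p under 0.05 and edgeR called 0. The background was 0.0496% (agoshRNA with gRNA), 0.0347% (agoshRNA with pre-gRNA) and 0% (gRNA with pre-gRNA) in the controls and 0.0446%, 0.0446% and 0% in KD. Median log2 differences of the 10 lay between -0.10 and 0.10 in all 6.

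**Figure D2:**
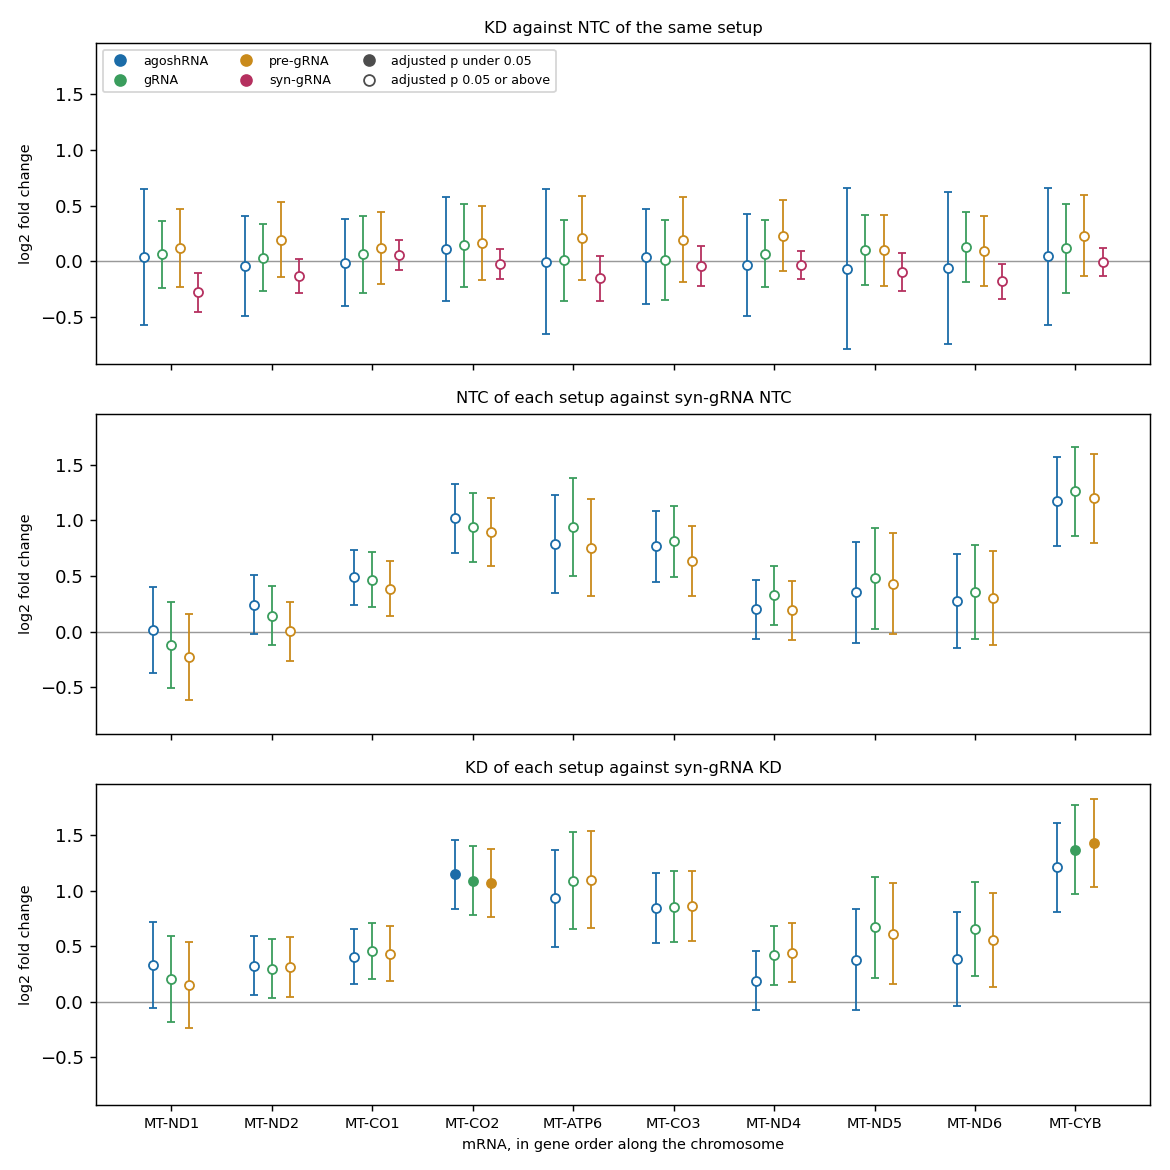
Log2 fold change and SE from DESeq2 for each messenger, in gene order: KD against NTC of each setup (top), and NTC (middle) and KD (bottom) of the other setups against syn-gRNA. Filled points have an adjusted p under 0.05; the 5 of them are MT-CO2 for 3 setups and MT-CYB for gRNA and pre-gRNA, all in the bottom panel.

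Other RNAs of the mitochondrial chromosome were compared in the same fits. The complex I messenger MT-ND3, which is not among the 10, was higher than in syn-gRNA KD by 1.5, 1.28 and 1.12 on the log2 scale in agoshRNA, gRNA and pre-gRNA KD (adjusted p = 0.00276, 0.0234 and 0.0499 in DESeq2). Against syn-gRNA NTC it stood at 1.14, 0.92 and 0.89 in the controls, without a call (adjusted p = 0.0526, 0.193 and 0.135 in DESeq2). Results of edgeR and of leaving out libraries are not given here for MT-ND3. MT-ATP8, which shares a transcript with MT-ATP6, stood at 0.96, 1.15 and 1.15 against syn-gRNA KD without a call. The 12S ribosomal RNA MT-RNR1 and the 16S ribosomal RNA MT-RNR2 did not share the direction in the KD arms. Against syn-gRNA KD they were at -0.19 and -0.11 in agoshRNA, -0.34 and -0.33 in gRNA and -0.49 and -0.43 in pre-gRNA, with no call. Against syn-gRNA NTC they were at -0.16 and 0.10 in agoshRNA, -0.54 and -0.39 in gRNA and -0.51 and -0.35 in pre-gRNA, also with no call. The 10 messengers had 0.721 to 1.26 counts per ribosomal count in syn-gRNA, 0.439 and 0.566 in the agoshRNA libraries of letter B, and 1.16 to 3.23 in the remaining 16 libraries. Other RNAs moved with the setup too: snoRNA rows summed to 1137 to 2664 CPM in syn-gRNA and 305 to 785 CPM elsewhere, and the nuclear RNA MALAT1 stood at 1277 to 2995 CPM in syn-gRNA and 81.2 to 1584 CPM elsewhere. Their part in the lower share of the messengers was not tested.

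Nuclear genes that make, process or translate the messengers showed few calls. Of 44 names listed, 40 were found and tested. Between KD and NTC 0 were called in each of the 4 setups, and 0 had an unadjusted p under 0.05 (DESeq2), and edgeR called 0 of all genes in each setup. TFAM, which binds and packages mitochondrial DNA, gave log2 fold changes of -0.05, 0.04, 0.09 and 0.01 in agoshRNA, gRNA, pre-gRNA and syn-gRNA. POLRMT gave 0.19, 0.21, -0.26 and -0.09, and LRPPRC gave -0.02, 0.03, 0.10 and 0.14, none of them called. SLIRP, its partner protein, was not analysed here under that name.

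Against syn-gRNA 1 gene of the list was called in each of 2 comparisons. TACO1, a translational activator of MT-CO1, was higher in pre-gRNA NTC by 1.21 (SE 0.37, adjusted p = 0.0368 in DESeq2). REXO2, an enzyme that degrades short RNA fragments, was lower in gRNA KD (log2 difference -0.91, SE 0.26, adjusted p = 0.0342 in DESeq2). Calls for 1 of 40 compare with the 3.25% and 1.58% of all genes above. Nuclear-encoded subunits of the respiratory complexes, 26 of 30 names found, gave 0 calls in DESeq2 in any comparison between KD and NTC or against syn-gRNA, with 1 unadjusted p under 0.05, in gRNA NTC against syn-gRNA NTC. Their median log2 difference from syn-gRNA NTC was 0.05, -0.18 and 0.22 in agoshRNA, gRNA and pre-gRNA NTC, with 20 of 26 lower in gRNA NTC, where that of the 10 mitochondrial messengers was 0.42, 0.47 and 0.41. From syn-gRNA KD it was 0.12, 0.12 and 0.11 in the KD arms, against 0.40, 0.66 and 0.59.

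By the summed level of the 10 messengers, likeness was measured as Pearson's r of log2(CPM + 1) over the 24 libraries, which share setups and letters. Among the 10, MT-ATP6 came closest to the sum (r = 0.99), and MT-CYB (0.77) and MT-ND1 (0.74) were farthest. Each of the 10 is itself part of the sum, to an unequal degree, so its r is not comparable with that of rows outside it. Among 13800 rows outside the mitochondrial chromosome, the 5 most like the sum were PPIL2 (0.95), the histone methyltransferase KMT2D (0.93), ZMIZ1 (0.93), the proton-pump subunit ATP6V0A1 (0.92) and MN1 (0.92). Of those rows 27.3% had r over 0.5, so a moderate likeness to the sum was common. The 5 named are the top of that ranking.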

How the data were processed

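Per the labels' protocols, poly(A) RNA was sequenced without strand information. The submitters' processing notes name Trim Galore, STAR 2.7.3a, featureCounts, DESeq2 and hg19, and counting settings are not given in the sources used here. The authors deposited 4 tables with identical raw read counts per gene for 24 libraries, plus their log2 fold changes and p-values. Per the file headers, 24 columns hold normalized values, which were not used. CPM and shares were computed from the counts over all rows; CPM per kb divides by annotated gene length, and 0 rows lacked a gene name.

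Each KD was tested against its NTC on 6 libraries with DESeq2 1.42.0 in R 4.3.3, over genes reaching 10 counts in 3 or more libraries, with Benjamini-Hochberg adjustment over all genes tested and adjusted p under 0.05 as a call. Setups were compared in 1 joint model, where each of the 8 groups has its own coefficient. edgeR 4.0.16 was an alternative, as were no filter, other scalings, pair-alone fits and leaving out libraries. Shares were compared by exact permutation. The test was tried on simulated counts with known fold changes, a fixed spread for all genes and no letter effect. That trial does not measure the power to find changes in these libraries. Same-letter KD and NTC libraries deviated together in 12 of 12 cases (r across genes 0.37 to 0.98), so the letter was fitted as a block in an alternative run. The main KD against NTC fits, the main joint model and the permutation tests did not use the letter. The pairing is a hint from the data, since no label gives it.

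The messengers, gene lists and tests were chosen with earlier results of these data known. The text names all 10 messengers by level, MT-ND6 and every called messenger in each comparison, 4 genes of the machinery list, list members that were called, and the 5 rows most like the summed messengers. Other fold changes, and MT-ND3, MT-ATP8 and the ribosomal RNAs, were named after their values were seen. Of the rows, 93.2% matched GENCODE 29 by gene identifier.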

Additional observations from a re-analysis of the deposited data

Results flagged for a closer look

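The change in the summed share of the 10 messengers went opposite ways in 2 setups when KD and NTC libraries of the same letter were compared. It was positive in 3 of 3 letters in pre-gRNA, with a mean of 0.291 percentage points, and negative in 3 of 3 in syn-gRNA, with a mean of -0.0519. This difference in share was not tested. The KD effects on the single messengers were tested between these setups in DESeq2: 0 of 10 were called, and the median difference of the log2 fold changes was 0.24. The mean pre-gRNA difference rested mainly on letters A and B, and without pre-gRNA NTC B the unpaired difference was -0.0226.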

How the results depend on the processing

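Between KD and NTC, 0 of 10 messengers were called under every alternative run (edgeR, no filter, other scalings, the letter as a replicate block, each library left out). The labels' replicate numbers could not be tied to the column letters, so libraries were paired by letter only. The replicate block by column letter gave medians of 0.03, 0.06, 0.19 and -0.07 in agoshRNA, gRNA, pre-gRNA and syn-gRNA, left 0, 0, 5 and 3 messengers with an unadjusted p under 0.05, changed no messenger's call in DESeq2 and called 1 gene of all in syn-gRNA. How many of all genes fell under 0.05 in these block fits is not given here. Between controls and syn-gRNA NTC, messengers called became 1 for agoshRNA without a filter (MT-CO2, adjusted p = 0.0495 in DESeq2), and 4 for gRNA and 2 for pre-gRNA in the fit of the pair alone. Between KD arms and syn-gRNA KD, edgeR called 0, 0 and 0, and the pair alone 0 for agoshRNA, 1 for gRNA and 3 for pre-gRNA. Over all genes, calls for agoshRNA, gRNA and pre-gRNA against syn-gRNA NTC fell from 371, 266 and 656 to 16, 0 and 149 in edgeR; the pair alone gave 1018 for gRNA and 1319 for pre-gRNA. Among the other controls edgeR gave 3 (agoshRNA with gRNA, against 10) and 2 (agoshRNA with pre-gRNA, against 7), and the pair alone 4 in the latter.

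Leaving out 1 library gave 0 to 1 messengers called for agoshRNA NTC against syn-gRNA NTC, and 0 to 4, 0 to 2 and 0 to 1 for agoshRNA, gRNA and pre-gRNA KD against syn-gRNA KD. Over all genes it gave 0 to 1 calls in syn-gRNA KD against NTC, and in controls 4 to 8 (agoshRNA with gRNA), 3 to 12 (agoshRNA with pre-gRNA), 43 to 487, 18 to 413 and 104 to 670 (agoshRNA, gRNA and pre-gRNA against syn-gRNA). The share, KD minus NTC, then ranged from -0.666 to 0.406 percentage points in agoshRNA, -0.235 to 0.172 in gRNA, -0.0226 to 0.539 in pre-gRNA and -0.172 to 0.0755 in syn-gRNA, so its sign rested on single libraries in each. Between controls it ranged from -0.693 to 0.363 (agoshRNA minus gRNA) and -0.375 to 0.681 (agoshRNA minus pre-gRNA), and kept its sign in the other 4 pairs. For MT-ND6 the log2 fold change ranged from -0.47 to 0.34 in agoshRNA KD and -0.06 to 0.22 in gRNA KD, and from -0.10 to 0.68 in agoshRNA NTC against syn-gRNA NTC. For MT-ND1 it ranged from -0.37 to 0.37 and -0.23 to 0.04 in agoshRNA and gRNA NTC against syn-gRNA NTC, and from -0.11 to 0.67 in agoshRNA KD against syn-gRNA KD. The cause of these changes was not tested. Leaving out KD libraries in the comparisons of KD arms, and finding nuclear copies by their GENCODE name, were chosen after seeing the data.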
